A study of Mus musculus with 24 samples.

Results

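The chemokines and chemokine receptors of the mouse heart were described over 48 genes. These are the genes of the deposited annotation, which lists 20961, whose symbol starts with Ccl, Cxcl, Cx3cl, Ccr, Cxcr, Cx3cr, Ackr or Ccrl followed by a digit. They comprise 29 ligands, 14 signalling receptors and 5 atypical receptors. Polyadenylated RNA of heart tissue was sequenced in bulk from NZO/HlLtJ mice, an inbred strain prone to obesity and diabetes, from CAST/EiJ mice, an inbred strain derived from wild mice, and from C57BL/6J mice, the most widely used laboratory strain. Males and females of each strain ate a 44% fat diet with fiber or a 10% fat diet with fiber, which the labels' protocol describes as a high fat, high sugar diet and its control. Diets started at 6 weeks of age and hearts were taken at 15 weeks. Every library is labelled as wild type with no other treatment. Each of the 12 combinations of strain, sex and diet has 2 libraries, 24 in all, so that a strain comparison sets 8 libraries against 8 and a diet comparison within a strain sets 4 against 4. Nothing in the labels says whether a combination's 2 libraries are 2 animals, and p-values measure the spread between these libraries, which may be technical.

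Chemokines are small secreted proteins that steer cells along a gradient by binding receptors coupled to inhibitory G proteins. Homeostatic chemokines such as Cxcl12 and Ccl21a are made in resting tissue and direct progenitor cells and lymphocytes, whereas inflammatory ones such as Ccl2 and Cxcl10 are induced by cytokines and recruit monocytes and T cells. Atypical receptors bind chemokines without driving migration, and take them up or hold them. In the heart, the Ccl2 receptor Ccr2 is known for marking macrophages that came from blood monocytes, and Cxcl12 with its receptor Cxcr4 for building the coronary vessels.

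Total counts ran from 30205073 to 52254058 per library, and the 48 genes together held 0.0308% to 0.0652% of them. The authors' deposited estimated counts were compared with edgeR's quasi-likelihood test over all 17203 genes with enough counts, with Benjamini-Hochberg adjustment, and a gene was called at an adjusted p under 0.05. Of the 48 genes, 39 were tested and 9 were not, because too few libraries reached the minimum count: Ccl3, Ccl4, Ccl21b, Ccl22, Ccl28, Cxcl2, Cxcl11, Ccr3 and Ccr6. Levels are in CPM, which are counts scaled to a common library total and for composition, and differences are log2 ratios with their standard error (SE). The 8 cardiomyocyte markers summed to between 50351 and 62623 CPM in every library, as the heart label requires. Exons of 10 of the genes overlap those of another gene, where reads may have been assigned to either. Sample names fall into 3 ranges of identifiers, whose meaning the labels do not give, and no NZO/HlLtJ library is in the first, so fits with this range as a block were run beside those without it. In bulk tissue, fewer cells of a type and less RNA per cell cannot be told apart.

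Once levels were divided by exon length, 3 of these genes had medians well above those of the others. Over the 24 libraries the median level per kb of exon was 24.9 CPM for Ackr3, 24.4 CPM for Cxcl12 and 21.3 CPM for Ccl21a, and the ranges of these genes over libraries overlapped. The next were Ccl6 at 5.09, Cxcl14 at 3.29, Cxcr4 at 2.91, Cxcl16 at 2.87 and Ccrl2 at 2.64 CPM per kb, whose ranges overlapped as well. Exon length here is that of all annotated exons of a gene joined, which can far exceed its longest coding transcript. These lengths were 7445 and 1058 bases for Ccl25, 2377 and 841 for Ccl27a and 8176 and 5627 for Cxcl12. The order of genes therefore depends on this choice. Ackr3 is the scavenger of Cxcl12, a homeostatic ligand of stromal cells, and Ccl21a is a ligand of lymphatic vessels.

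Differences between strains passed the threshold for many of these genes, and differences between diets or sexes for none. CAST/EiJ hearts had lower levels of most called genes: 22 of the 39 differed from C57BL/6J, 4 higher and 18 lower, where 58.8% of all genes tested were called, 29.1% higher and 29.7% lower. In NZO/HlLtJ against C57BL/6J hearts 16 of the 39 differed, 11 higher and 5 lower, against a background of 35.5% of all genes, 17.9% higher and 17.6% lower. In NZO/HlLtJ against CAST/EiJ hearts 25 of the 39 differed, 22 higher and 3 lower, against a background of 60.3%, with 30.5% higher and 29.8% lower. The share called, at 56.4%, 41% and 64.1% in that order, was near its background in each comparison. Higher and lower calls were nearly equal over all genes, beside 4 and 18, 11 and 5, and 22 and 3 among these genes, which is given as a count and was not tested against other genes. The median log2 difference over the 39 genes was -0.60 for CAST/EiJ minus C57BL/6J, 0.11 for NZO/HlLtJ minus C57BL/6J and 0.78 for NZO/HlLtJ minus CAST/EiJ. Over all genes tested the same medians were 0.00115, 6.19e-06 and 0.00267. The 3 comparisons share libraries, so their counts are not independent of each other. With the identifier range as a block, 22, 12 and 24 genes were called in the same order, and within the first range, 4 CAST/EiJ against 4 C57BL/6J libraries, 18 were.

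In 10 genes the 8 CAST/EiJ libraries did not overlap the 8 C57BL/6J libraries, 2 higher and 8 lower, where 27% of all genes separated in this way. For NZO/HlLtJ against C57BL/6J 3 genes separated higher and 3 lower (background 12.2%), and for NZO/HlLtJ against CAST/EiJ 8 separated higher and 2 lower (background 26.8%). Of the 39 genes, 29 were called in at least 1 strain comparison, 8 in all 3 and 10 in none. Cxcl14, Ccl8, Ccr1, Ccr9 and Ackr4 were ordered NZO/HlLtJ over C57BL/6J over CAST/EiJ in all 3 tests. Cxcl9, Ccr2 and Ccrl2 were ordered C57BL/6J over NZO/HlLtJ over CAST/EiJ in all 3 tests. The 10 genes without a call were Ccl2, Ccl9, Cxcl1, Cxcl5, Ccr7, Ccr10, Cxcr2, Cxcr5, Cx3cr1 and Ackr1.

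**Figure D1:**
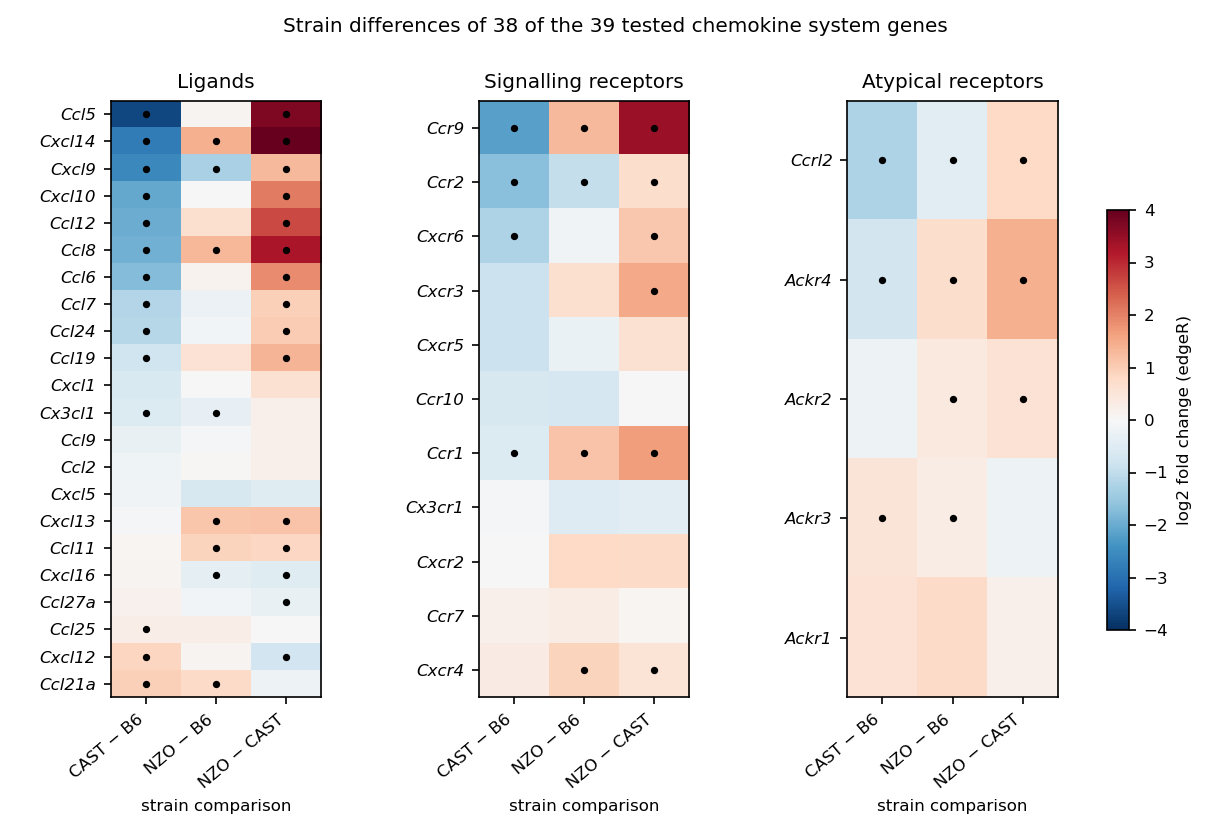
Log2 difference (colour) of 38 of the 39 tested genes in rows, in panels of ligands, signalling receptors and atypical receptors, for the strain comparisons in columns, where a dot marks an adjusted p under 0.05 in edgeR's quasi-likelihood test. The column of CAST/EiJ minus C57BL/6J shows 17 called genes that are lower and 4 that are higher, and the column of NZO/HlLtJ minus CAST/EiJ shows 21 higher and 3 lower.

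Of the 22 ligands tested, 3 were higher and 11 lower in CAST/EiJ against C57BL/6J hearts, 5 higher and 3 lower in NZO/HlLtJ against C57BL/6J hearts, and 12 higher and 3 lower in NZO/HlLtJ against CAST/EiJ hearts. Over all genes tested, 58.8%, 35.5% and 60.3% were called in the same order. Among the ligands, the interferon-inducible chemokine Cxcl9 had the smallest adjusted p of all 39 genes between CAST/EiJ and C57BL/6J hearts. Cxcl9 (ENSMUSG00000029417, chromosome 5, 92321347 to 92328079) and its neighbour Cxcl10 (ENSMUSG00000034855, chromosome 5, 92346638 to 92348889) attract activated T and natural killer (NK) cells through the receptor Cxcr3. Their start regions are shown because both genes had their lowest median in CAST/EiJ hearts and hold different motif letters. The sequences are from RefSeq on build GRCm38.p6, run from 250 bases before to 50 bases after the start, and are written 5′ to 3′ on the gene's strand in lower case. Capitals mark matches on either strand to TTCNNTTTC (core of the interferon-stimulated response element), TTCNNNGAA (STAT), GGAANTTCC or GGANTTTCC (cores of NF-kappaB sites) and TATAAA (letters of the TATA box). TATAAA is marked wherever it lies in the window, so a match need not be a working TATA box.
Cxcl9 (chr5:92328030-92328329, minus strand): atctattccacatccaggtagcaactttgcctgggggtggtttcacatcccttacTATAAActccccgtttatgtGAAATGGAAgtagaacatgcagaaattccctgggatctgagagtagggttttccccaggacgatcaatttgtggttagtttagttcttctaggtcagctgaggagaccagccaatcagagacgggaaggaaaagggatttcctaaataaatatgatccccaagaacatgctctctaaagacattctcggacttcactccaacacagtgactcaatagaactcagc
Cxcl10 (chr5:92348840-92349139, minus strand): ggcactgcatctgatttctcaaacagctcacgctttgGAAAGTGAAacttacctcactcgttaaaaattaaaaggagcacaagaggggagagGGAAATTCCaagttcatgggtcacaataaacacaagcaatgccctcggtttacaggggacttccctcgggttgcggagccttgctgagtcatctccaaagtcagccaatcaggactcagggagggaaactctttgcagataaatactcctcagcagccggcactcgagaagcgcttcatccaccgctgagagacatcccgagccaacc
The Cxcl9 window held TATAAA, at -195 to -190 from the start, and 1 match to TTCNNTTTC, read as GAAATGGAA on this strand. The Cxcl10 window held 1 match to TTCNNTTTC, read as GAAAGTGAA, and the letters GGAAATTCC, which match both NF-kappaB forms at the same bases. Of 32544 distinct promoter windows of this length in the same table, 8.53% held TTCNNTTTC, 0.928% held GGAANTTCC, 1.26% held GGANTTTCC, 8.33% held TTCNNNGAA and 13.6% held TATAAA. Of the 41 windows listed for 35 of the 48 genes, the shares were 14.6%, 12.2%, 12.2%, 4.88% and 24.4% in the same order. These 41 were counted as listed, without removing any repeated sequence, so the shares are not strictly alike. These letters describe the C57BL/6J-based build, and the sequences of the other strains were not used here.

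Cxcl9 was measured, as lowest, median and highest of 8 libraries, at 1.06, 1.52 and 2.13 CPM in NZO/HlLtJ hearts, 0.242, 0.598 and 1.19 CPM in CAST/EiJ hearts and 2.86, 3.48 and 5.01 CPM in C57BL/6J hearts. The C57BL/6J range lay above both other ranges without overlap, and the NZO/HlLtJ and CAST/EiJ ranges overlapped. Cxcl9 was lower in CAST/EiJ than in C57BL/6J (log2 difference -2.58, SE 0.20, adjusted p = 1.52e-09), lower in NZO/HlLtJ hearts than in C57BL/6J (-1.29, SE 0.18, adjusted p = 1.28e-05) and higher in NZO/HlLtJ than in CAST/EiJ (1.29, SE 0.20, adjusted p = 2.07e-05). Cxcl10 ran over 0.155, 0.390 and 0.826 CPM in NZO/HlLtJ hearts, 0, 0.0808 and 0.351 CPM in CAST/EiJ hearts and 0.128, 0.419 and 0.637 CPM in C57BL/6J hearts, with overlap between all strains. It was lower in CAST/EiJ than in C57BL/6J (-2.05, SE 0.52, adjusted p = 0.00215) and higher in NZO/HlLtJ than in CAST/EiJ (2.06, SE 0.51, adjusted p = 0.00184), while the difference between NZO/HlLtJ and C57BL/6J hearts was 0.02 (SE 0.44, adjusted p = 0.984). Cxcl10 shares 133 exonic bases, 5.9% of its exons, with the far more abundant Art3 (mean 93.1 CPM) on the opposite strand. Whether counting used strand to keep their reads apart is not given. The log2 differences of Art3 were -0.09 for CAST/EiJ minus C57BL/6J and 0.24 for NZO/HlLtJ minus CAST/EiJ. Without CAST/EiJ female 44% fat replicate 1 or male 44% fat replicate 1, the difference of Cxcl10 between CAST/EiJ and C57BL/6J was -2.77 or -2.95, and that between NZO/HlLtJ and CAST/EiJ was 2.79 or 2.97. The library left alone in its group in these fits had a Cxcl10 count of 1 or 0. Cxcl11, the third Cxcr3 ligand, was not tested and was at most 0.0936 CPM in any library. Unlike Cxcl9 and Cxcl10, it had its highest mean in CAST/EiJ hearts. The means were 0.00225 CPM in NZO/HlLtJ, 0.0527 CPM in CAST/EiJ and 0.00359 CPM in C57BL/6J hearts, on counts of 4 or fewer per library, and the ranges overlapped.

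Other interferon-inducible genes were lower as well, in a list of 15 chosen with earlier results of these data known. None was called higher and 12 lower in CAST/EiJ against C57BL/6J hearts, with a median log2 difference of -1.29. In NZO/HlLtJ against C57BL/6J hearts none was higher and 14 lower, with a median of -0.64. Over all genes tested, 29.7% and 17.6% were called lower in these comparisons. The smallest adjusted p in the CAST/EiJ comparison belonged to Ifi44 (-5.96), Irgm1 (-1.29), a GTPase of cell-autonomous defence, and Irf7 (-3.33), a transcription factor of the interferon response. In NZO/HlLtJ against C57BL/6J Irgm1 (-0.60) and the related GTPase Igtp (-0.87) had the smallest. Summed over the 15 genes, levels ran from 118 to 201 CPM in NZO/HlLtJ, from 106 to 143 CPM in CAST/EiJ and from 171 to 271 CPM in C57BL/6J hearts. Their part in the Cxcl9 difference was not tested.

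Their receptor Cxcr3, carried by activated T and NK cells, was read at 0, 0.172 and 0.497 CPM in NZO/HlLtJ hearts, 0.0277, 0.0569 and 0.134 CPM in CAST/EiJ hearts and 0, 0.171 and 0.257 CPM in C57BL/6J hearts. All 3 ranges overlapped. It was called only between NZO/HlLtJ and CAST/EiJ (1.51, SE 0.55, adjusted p = 0.0246). Without NZO/HlLtJ male 44% fat replicate 1 that difference was 0.33, in a fit where the 1 library left in that group had no Cxcr3 count. Blocking on the identifier range gave 1.60, adjusted p = 0.0525. Of 12 T and NK cell markers, 1 was higher and 8 lower in CAST/EiJ against C57BL/6J hearts, and 9 were higher and 1 lower in NZO/HlLtJ against CAST/EiJ hearts. Of all genes tested, 58.8% and 60.3% were called in these comparisons. The summed marker levels, in which each marker weighs by its level and Thy1 is included, overlapped. They were 5.71 to 12.3 CPM in NZO/HlLtJ, 7.01 to 9.80 CPM in CAST/EiJ and 6.30 to 10.9 CPM in C57BL/6J hearts. Thy1, which stromal cells also carry, was the marker called higher in CAST/EiJ (0.41), beside lower levels of the granzyme Gzma (-2.91) and the NK receptor Ncr1 (-3.65).

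Ccl5, the chemokine best known from T and NK cells, was close to the limit of detection in CAST/EiJ hearts. It was read at 0.109, 0.247 and 0.466 CPM in NZO/HlLtJ hearts, 0, 0.0233 and 0.0668 CPM in CAST/EiJ hearts and 0.128, 0.221 and 0.527 CPM in C57BL/6J hearts, and 3 CAST/EiJ libraries had no count of it. The CAST/EiJ range lay below both other ranges, which overlapped each other. It was lower in CAST/EiJ than in C57BL/6J (-3.63, SE 0.55, adjusted p = 1.47e-05) and lower in CAST/EiJ than in NZO/HlLtJ (NZO/HlLtJ minus CAST/EiJ 3.74, SE 0.54, adjusted p = 7.98e-06). With counts of 0 to 3 per CAST/EiJ library, the size of these fitted differences depends on how the model treats counts near 0. Most T and NK cell markers were called lower in CAST/EiJ than in C57BL/6J hearts, as given above. Their summed levels, which include Thy1, overlapped. The summed medians were 9.70 CPM in NZO/HlLtJ, 8.76 CPM in CAST/EiJ and 8.88 CPM in C57BL/6J hearts. The part of these markers in the Ccl5 result was not tested.

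**Figure D2:**
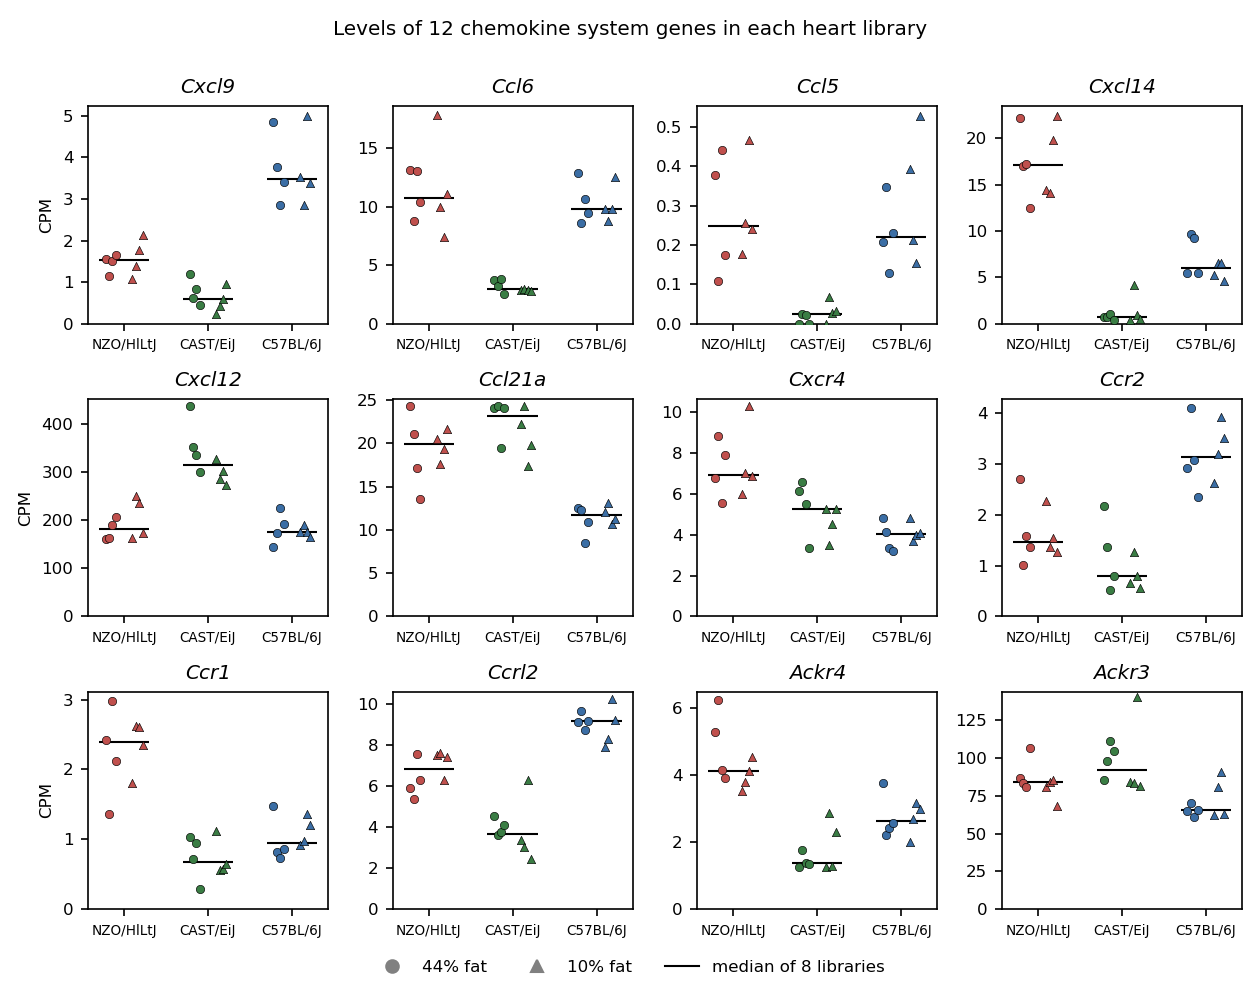
Level of 12 of the genes in CPM (vertical axes) in every library, in columns of NZO/HlLtJ, CAST/EiJ and C57BL/6J hearts, with circles for 44% fat, triangles for 10% fat and a line at the median of 8 libraries. The 8 CAST/EiJ libraries lie below every other library for Ccl6 and Ccl5, the 8 C57BL/6J libraries lie above every other library for Cxcl9, and the 8 CAST/EiJ libraries lie above every other library for Cxcl12.

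Cxcl12 and Ccl21a, unlike the ligands above, were higher in CAST/EiJ than in C57BL/6J hearts. Cxcl12 (ENSMUSG00000061353, chromosome 6, 117168535 to 117181367), which is made by stromal and endothelial cells and keeps stem cells and lymphocytes in place, ran over 161, 182 and 251 CPM in NZO/HlLtJ hearts, 273, 314 and 437 CPM in CAST/EiJ hearts and 144, 175 and 225 CPM in C57BL/6J hearts. The CAST/EiJ range lay above both others. It was higher in CAST/EiJ than in C57BL/6J (0.85, SE 0.10, adjusted p = 5.11e-06) and lower in NZO/HlLtJ than in CAST/EiJ (-0.75, SE 0.10, adjusted p = 1.72e-05), and the difference between NZO/HlLtJ and C57BL/6J hearts was 0.10 (SE 0.10, adjusted p = 0.493). Of 6 venous endothelial markers, 4 were higher and 1 lower in CAST/EiJ against C57BL/6J hearts, 2 higher and 1 lower in NZO/HlLtJ against C57BL/6J hearts, and none higher and 4 lower in NZO/HlLtJ against CAST/EiJ hearts. Of all genes tested, 58.8%, 35.5% and 60.3% were called in the same order. The 6 markers summed to 193 to 265 CPM in NZO/HlLtJ, 277 to 379.8 CPM in CAST/EiJ and 243 to 339 CPM in C57BL/6J hearts, so that NZO/HlLtJ and CAST/EiJ did not overlap. The 7 blood endothelial markers summed to 722 to 843 CPM in NZO/HlLtJ, 678 to 1085 CPM in CAST/EiJ and 765 to 899 CPM in C57BL/6J hearts, with overlap, and the part of either list in the Cxcl12 difference was not tested. The signalling receptor of Cxcl12, Cxcr4, found on leukocytes and growing vessels, had 5.57, 6.94 and 10.3 CPM in NZO/HlLtJ hearts, 3.37, 5.27 and 6.58 CPM in CAST/EiJ hearts and 3.22, 4.06 and 4.82 CPM in C57BL/6J hearts. Every NZO/HlLtJ library exceeded every C57BL/6J library for Cxcr4, while the CAST/EiJ range overlapped both. Cxcr4 was higher in NZO/HlLtJ than in C57BL/6J (0.88, SE 0.15, adjusted p = 0.000157) and than in CAST/EiJ (0.56, SE 0.15, adjusted p = 0.00294), and was not called in CAST/EiJ against C57BL/6J (0.32, adjusted p = 0.0792). Ackr3, which binds Cxcl12 and removes it, stood at 68.2, 83.8 and 106 CPM in NZO/HlLtJ hearts, 81.1, 91.8 and 139.9 CPM in CAST/EiJ hearts and 60.7, 65.3 and 90.4 CPM in C57BL/6J hearts. All 3 ranges overlapped. Ackr3 was higher in CAST/EiJ than in C57BL/6J (0.50, SE 0.10, adjusted p = 0.000423) and higher in NZO/HlLtJ than in C57BL/6J (0.29, SE 0.10, adjusted p = 0.0327). The NZO/HlLtJ call was lost in 12 of 24 fits that each left out 1 library (adjusted p up to 0.0887), and with the identifier range as a block (0.21, adjusted p = 0.167). That block added a call against CAST/EiJ (-0.28, adjusted p = 0.0384).

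Ccl21a, which lymphatic endothelium makes to draw in dendritic cells and T cells bearing Ccr7, was 13.6, 19.97 and 24.4 CPM in NZO/HlLtJ hearts, 17.4, 23.2 and 24.4 CPM in CAST/EiJ hearts and 8.44, 11.7 and 13.1 CPM in C57BL/6J hearts. Every NZO/HlLtJ and every CAST/EiJ library exceeded every C57BL/6J library. The gene was higher in CAST/EiJ than in C57BL/6J (0.95, SE 0.09, adjusted p = 6.84e-08) and higher in NZO/HlLtJ than in C57BL/6J (0.76, SE 0.09, adjusted p = 3.37e-06). Its copies are nearly identical, 50.3% of the 100-base windows of its transcript occur in other genes, and its counts are uncertain because reads can be split between copies. The listed copy Ccl21b, whose windows are all shared, was assigned counts at or near 0, which set no limit on its level because reads of identical copies can be assigned to either. Of 6 lymphatic endothelial markers, 1 was higher and 4 lower in CAST/EiJ against C57BL/6J hearts, and 1 was higher and none lower in NZO/HlLtJ against C57BL/6J hearts. Of all genes tested, 58.8% and 35.5% were called in these comparisons. The summed level of the 6 markers was 153 to 173 CPM in NZO/HlLtJ, 129.9 to 164 CPM in CAST/EiJ and 156 to 186 CPM in C57BL/6J hearts.

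Ccl19, the other ligand of Ccr7, was 0.275, 0.604 and 1.09 CPM in NZO/HlLtJ hearts, 0.0974, 0.221 and 0.589 CPM in CAST/EiJ hearts and 0.276, 0.427 and 0.561 CPM in C57BL/6J hearts. It was higher in NZO/HlLtJ than in CAST/EiJ (1.36, SE 0.32, adjusted p = 0.00109) and lower in CAST/EiJ than in C57BL/6J (-0.79, SE 0.33, adjusted p = 0.0468), and the ranges overlapped. The call against C57BL/6J was lost in 13 of 24 fits without 1 library (adjusted p up to 0.104), and 41.8% of its windows occur in other genes. Ccr7 itself, which guides cells into lymph vessels, averaged 0.292 ± 0.266 CPM in NZO/HlLtJ hearts, 0.232 ± 0.123 CPM in CAST/EiJ hearts and 0.192 ± 0.101 CPM in C57BL/6J hearts (SD, n = 8 each) and was called in no strain comparison.

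Cxcl14, a ligand of epithelium and fibroblasts whose main receptor is unsettled, had the largest log2 difference of the 39 genes in any strain comparison. It ran over 12.5, 17.1 and 22.4 CPM in NZO/HlLtJ hearts, 0.396, 0.682 and 4.21 CPM in CAST/EiJ hearts and 4.57, 6.01 and 9.65 CPM in C57BL/6J hearts, and no strain's range overlapped another's. It was lower in CAST/EiJ than in C57BL/6J (-2.78, SE 0.29, adjusted p = 1.29e-06), higher in NZO/HlLtJ than in C57BL/6J (1.43, SE 0.23, adjusted p = 0.000226) and higher in NZO/HlLtJ than in CAST/EiJ (4.22, SE 0.28, adjusted p = 1.16e-08). All 7 fibroblast markers were higher in NZO/HlLtJ hearts than in C57BL/6J and CAST/EiJ hearts, and in CAST/EiJ against C57BL/6J hearts 1 was higher and 2 were lower. Of all genes tested, 17.9% were called higher in NZO/HlLtJ than in C57BL/6J hearts and 30.5% higher than in CAST/EiJ hearts. Summed, the fibroblast markers ran over 1461 to 1809 CPM in NZO/HlLtJ, 894 to 1232 CPM in CAST/EiJ and 1028 to 1124 CPM in C57BL/6J hearts, and their part in the Cxcl14 result was not tested.

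Cxcl16 and Cx3cl1 are the ligands made as membrane proteins and shed by proteases. Cxcl16, whose receptor Cxcr6 sits on T and NKT cells, was 6.23, 6.53 and 7.46 CPM in NZO/HlLtJ hearts, 8.66, 9.41 and 10.9 CPM in CAST/EiJ hearts and 7.57, 8.74 and 10.1 CPM in C57BL/6J hearts. Every NZO/HlLtJ library was below every C57BL/6J and CAST/EiJ library. Cxcl16 was lower in NZO/HlLtJ hearts than in C57BL/6J (-0.38, SE 0.07, adjusted p = 0.000410) and than in CAST/EiJ (-0.49, SE 0.07, adjusted p = 8.43e-06). It shares 552 exonic bases, 18.3% of its exons, with Zmynd15 on the opposite strand, whose log2 differences were -0.74 and -1.09 in the same 2 comparisons. Without use of strand in counting, which is not given, reads of both genes there could be assigned to either. Cx3cl1, which holds patrolling monocytes and macrophages by Cx3cr1, was 6.91, 7.58 and 8.60 CPM in NZO/HlLtJ hearts, 4.34, 6.80 and 8.61 CPM in CAST/EiJ hearts and 8.32, 9.29 and 11.5 CPM in C57BL/6J hearts, with overlapping ranges. It was lower in CAST/EiJ than in C57BL/6J (-0.55, SE 0.12, adjusted p = 0.000572) and lower in NZO/HlLtJ hearts than in C57BL/6J (-0.33, SE 0.12, adjusted p = 0.0328), a call that was lost in 13 of 24 fits without 1 library (adjusted p up to 0.0834) and with the identifier range as a block (-0.22, adjusted p = 0.145). Cx3cl1 was called higher in NZO/HlLtJ than in CAST/EiJ under that block (0.35, adjusted p = 0.0159). Of the proteases that cut these ligands, Adam17 was higher in CAST/EiJ (0.57) and in NZO/HlLtJ (0.58) than in C57BL/6J hearts. Over 8 genes of chemokine shedding and cleavage, 4 were higher and 3 lower in CAST/EiJ against C57BL/6J, 2 were higher and none lower in NZO/HlLtJ against C57BL/6J, and 3 were higher and 2 lower in NZO/HlLtJ against CAST/EiJ. Of all genes tested, 58.8%, 35.5% and 60.3% were called in the same order.

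Of the CC ligands of macrophages and other myeloid cells, Ccl6 was low in CAST/EiJ hearts and its neighbour Ccl9 was not called over all libraries. Within the first identifier range, Ccl9 too was called lower in CAST/EiJ than in C57BL/6J (-0.38, adjusted p = 0.0482). Both are rodent ligands of Ccr1 and lie side by side on chromosome 11 (Ccl6 at 83587882 to 83593087 and Ccl9 at 83572919 to 83578636). Their start regions, from the same table and with the same capitals, are shown because 1 of these near relatives was called between strains over all libraries and the other was not.
Ccl6 (chr11:83593038-83593337, minus strand): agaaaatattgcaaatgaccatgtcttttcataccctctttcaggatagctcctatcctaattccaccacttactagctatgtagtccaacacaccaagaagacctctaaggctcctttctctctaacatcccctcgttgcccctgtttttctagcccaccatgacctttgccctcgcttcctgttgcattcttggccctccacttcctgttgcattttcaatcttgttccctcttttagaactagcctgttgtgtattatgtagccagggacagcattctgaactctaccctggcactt
Ccl9 (chr11:83578587-83578886, minus strand): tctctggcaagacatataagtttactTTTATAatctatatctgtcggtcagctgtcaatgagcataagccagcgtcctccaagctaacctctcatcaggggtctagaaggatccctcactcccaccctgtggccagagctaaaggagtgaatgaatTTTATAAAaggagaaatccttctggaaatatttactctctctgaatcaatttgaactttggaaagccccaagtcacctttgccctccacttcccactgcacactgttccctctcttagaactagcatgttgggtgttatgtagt
The Ccl6 window held no match to the 5 motifs, which says only that these letters are not in this window. The Ccl9 window held TATAAA or its reverse complement 3 times, of which 2 overlap. These lay at -224 to -219, -94 to -89 and -92 to -87 from the start. Ccl6 was 7.39, 10.8 and 17.9 CPM in NZO/HlLtJ hearts, 2.49, 2.95 and 3.80 CPM in CAST/EiJ hearts and 8.61, 9.83 and 12.9 CPM in C57BL/6J hearts, and each CAST/EiJ library was below each library of the other strains, whose ranges overlapped. Ccl6 was lower in CAST/EiJ than in C57BL/6J (-1.74, SE 0.14, adjusted p = 1.50e-08) and higher in NZO/HlLtJ than in CAST/EiJ (1.88, SE 0.14, adjusted p = 4.92e-09), with a difference of 0.14 (SE 0.13) between NZO/HlLtJ and C57BL/6J hearts. Ccl9 was 5.58, 6.72 and 11.7 CPM in NZO/HlLtJ hearts, 4.57, 6.20 and 8.04 CPM in CAST/EiJ hearts and 6.53, 7.12 and 10.7 CPM in C57BL/6J hearts, all overlapping, with differences of -0.30 (SE 0.14, adjusted p = 0.0852) in CAST/EiJ and -0.09 (SE 0.14, adjusted p = 0.685) in NZO/HlLtJ against C57BL/6J.

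The monocyte and eosinophil ligands of the cluster around Ccl2 on chromosome 11 did not move as a unit. Ccl2, the chief monocyte attractant, averaged 1.24 ± 0.544 CPM in NZO/HlLtJ hearts, 1.09 ± 0.392 CPM in CAST/EiJ hearts and 1.21 ± 0.361 CPM in C57BL/6J hearts (SD, n = 8 each), with no call in any strain comparison. Ccl7, which also binds Ccr2, was 0.245, 0.624 and 1.06 CPM in NZO/HlLtJ hearts, 0.0976, 0.369 and 0.637 CPM in CAST/EiJ hearts and 0.517, 0.771 and 0.969 CPM in C57BL/6J hearts, and was lower in CAST/EiJ than in C57BL/6J (-1.17, SE 0.30, adjusted p = 0.00244) and higher in NZO/HlLtJ than in CAST/EiJ (0.94, SE 0.30, adjusted p = 0.0111). The ranges of Ccl7 overlapped, and without NZO/HlLtJ male 44% fat replicate 1 its difference from CAST/EiJ was 0.65 (adjusted p = 0.0755). Ccl12, a mouse monocyte attractant and Ccr2 ligand, was 0.399, 0.719 and 1.86 CPM in NZO/HlLtJ hearts, 0.0277, 0.167 and 0.244 CPM in CAST/EiJ hearts and 0.306, 0.571 and 0.728 CPM in C57BL/6J hearts. Every CAST/EiJ library was below every other for Ccl12, which was lower in CAST/EiJ than in C57BL/6J (-1.97, SE 0.37, adjusted p = 0.000129) and higher in NZO/HlLtJ than in CAST/EiJ (2.63, SE 0.35, adjusted p = 3.31e-06).

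In the same cluster, Ccl8 and Ccl11 were highest in NZO/HlLtJ hearts. Ccl8, a ligand made by macrophages, was 0.311, 0.619 and 3.39 CPM in NZO/HlLtJ hearts, 0, 0.103 and 0.249 CPM in CAST/EiJ hearts and 0.131, 0.253 and 0.867 CPM in C57BL/6J hearts. The NZO/HlLtJ libraries exceeded all CAST/EiJ libraries and overlapped those of C57BL/6J. Ccl8 was higher in NZO/HlLtJ than in C57BL/6J (1.33, SE 0.37, adjusted p = 0.00909) and than in CAST/EiJ (3.26, SE 0.44, adjusted p = 3.59e-06), and lower in CAST/EiJ than in C57BL/6J (-1.93, SE 0.49, adjusted p = 0.00215). Without CAST/EiJ female 44% fat replicate 2 or male 44% fat replicate 2, the difference of Ccl8 between CAST/EiJ and C57BL/6J was -2.81 or -2.84, and that between NZO/HlLtJ and CAST/EiJ was 4.14 or 4.17. In either fit the library left alone in its group had no Ccl8 count. The difference of Ccl8 between NZO/HlLtJ and C57BL/6J, blocked on the identifier range, was 1.00, adjusted p = 0.0758. Ccl11, the eosinophil attractant eotaxin, which fibroblasts make, was 1.31, 2.02 and 2.32 CPM in NZO/HlLtJ hearts, 0.681, 1.10 and 1.39 CPM in CAST/EiJ hearts and 0.310, 1.05 and 2.48 CPM in C57BL/6J hearts, with overlap. It was higher in NZO/HlLtJ than in C57BL/6J (0.89, SE 0.20, adjusted p = 0.00193) and than in CAST/EiJ (0.82, SE 0.20, adjusted p = 0.00151). The 7 fibroblast markers were higher in the same comparisons, and their part in the Ccl11 result was not tested. Ccl24, a further eosinophil attractant, encoded on chromosome 5, was 0.435, 1.03 and 1.24 CPM in NZO/HlLtJ hearts, 0.246, 0.50 and 0.780 CPM in CAST/EiJ hearts and 0.546, 0.968 and 1.99 CPM in C57BL/6J hearts, and was lower in CAST/EiJ than in C57BL/6J (-1.13, SE 0.25, adjusted p = 0.000790) and higher in NZO/HlLtJ than in CAST/EiJ (1.03, SE 0.25, adjusted p = 0.00159), again with overlap.

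The remaining ligands were low or differed little. Cxcl13, which draws B cells through Cxcr5, was 0.400, 0.917 and 3.42 CPM in NZO/HlLtJ hearts, 0.246, 0.535 and 1.45 CPM in CAST/EiJ hearts and 0.172, 0.615 and 2.06 CPM in C57BL/6J hearts. It was higher in NZO/HlLtJ than in C57BL/6J (1.11, SE 0.42, adjusted p = 0.0490) and than in CAST/EiJ (1.14, SE 0.40, adjusted p = 0.0221), but the ranges overlapped, and leaving out 1 library ended these calls in 18 and 6 of 24 fits (adjusted p up to 0.152 and 0.0852). The identifier range as a block ended both calls as well (0.99, adjusted p = 0.135, and 0.99, adjusted p = 0.0809). Ccl25, the ligand of Ccr9, averaged 3.31 ± 0.620 CPM in NZO/HlLtJ hearts, 3.38 ± 0.390 CPM in CAST/EiJ hearts and 2.78 ± 0.309 CPM in C57BL/6J hearts (SD, n = 8 each) and was called higher only in CAST/EiJ against C57BL/6J (0.28, SE 0.11, adjusted p = 0.0432), a call lost in 13 of 24 fits without 1 library (adjusted p up to 0.123). Ccl27a, a ligand of Ccr10, averaged 2.34 ± 0.443 CPM in NZO/HlLtJ hearts, 2.84 ± 0.254 CPM in CAST/EiJ hearts and 2.51 ± 0.387 CPM in C57BL/6J hearts and was called lower only in NZO/HlLtJ against CAST/EiJ (-0.28, SE 0.12, adjusted p = 0.0411), lost in 11 of 24 such fits (adjusted p up to 0.114). Neither Ccl25 (0.28, adjusted p = 0.0508) nor Ccl27a (-0.30, adjusted p = 0.0599) was called once the identifier range was a block. Because 46.2% of the windows of Ccl27a occur in near-identical genes, its counts are uncertain. Ccl25 shares 204 exonic bases with Elavl1 (mean 35.1 CPM) on the opposite strand, and the use of strand in counting is not given. The neutrophil attractants Cxcl1, at 0.533 ± 0.211 CPM in NZO/HlLtJ hearts, 0.356 ± 0.142 CPM in CAST/EiJ hearts and 0.535 ± 0.10 CPM in C57BL/6J hearts, and Cxcl5, at 0.0977 ± 0.0847 CPM in NZO/HlLtJ hearts, 0.137 ± 0.0898 CPM in CAST/EiJ hearts and 0.167 ± 0.0956 CPM in C57BL/6J hearts, had no call. Ccl3, Ccl4 and Ccl22, ligands of activated leukocytes, the mucosal ligand Ccl28 and the neutrophil ligand Cxcl2 were not tested, and none of them exceeded 0.373 CPM in any library. Ccl4 had no count in the 8 CAST/EiJ libraries, which allows up to 0.00938 CPM over them, against medians of 0.0280 CPM in NZO/HlLtJ and 0.0710 CPM in C57BL/6J hearts. This limit covers counting error only.

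Of the 12 signalling receptors tested, CAST/EiJ against C57BL/6J hearts had none higher and 5 lower, NZO/HlLtJ against C57BL/6J had 3 higher and 1 lower, and NZO/HlLtJ against CAST/EiJ had 7 higher and none lower. The shares called over all genes were 58.8%, 35.5% and 60.3% in that order. Ccr2, the receptor of Ccl2, Ccl7 and Ccl12 on inflammatory monocytes, was 1.01, 1.46 and 2.72 CPM in NZO/HlLtJ hearts, 0.527, 0.804 and 2.18 CPM in CAST/EiJ hearts and 2.35, 3.14 and 4.11 CPM in C57BL/6J hearts. Every CAST/EiJ library was below every C57BL/6J library, and the NZO/HlLtJ range overlapped both. Ccr2 was lower in CAST/EiJ than in C57BL/6J (-1.67, SE 0.27, adjusted p = 5.51e-05) and lower in NZO/HlLtJ hearts than in C57BL/6J (-0.96, SE 0.26, adjusted p = 0.00845), and higher in NZO/HlLtJ than in CAST/EiJ (0.71, SE 0.28, adjusted p = 0.0367), the last lost in 10 of 24 fits without 1 library (adjusted p up to 0.141). Near-identical stretches make up 0.9% of the 100-base windows of Ccr2.

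Ccr1, which binds Ccl6, Ccl9 and Ccl7 on myeloid cells and lies in the same stretch of chromosome 9, went another way. It was 1.36, 2.39 and 2.98 CPM in NZO/HlLtJ hearts, 0.293, 0.681 and 1.12 CPM in CAST/EiJ hearts and 0.740, 0.944 and 1.48 CPM in C57BL/6J hearts, and every NZO/HlLtJ library exceeded every CAST/EiJ library while the C57BL/6J range overlapped both. Ccr1 was higher in NZO/HlLtJ than in C57BL/6J (1.14, SE 0.20, adjusted p = 0.000166) and than in CAST/EiJ (1.67, SE 0.20, adjusted p = 9.38e-07), and lower in CAST/EiJ than in C57BL/6J (-0.53, SE 0.21, adjusted p = 0.0388), a call lost in 10 of 24 fits without 1 library (adjusted p up to 0.114). Ccr9, the Ccl25 receptor of gut-homing lymphocytes, was 0.180, 0.416 and 0.598 CPM in NZO/HlLtJ hearts, 0, 0.0382 and 0.0830 CPM in CAST/EiJ hearts and 0.0513, 0.158 and 0.361 CPM in C57BL/6J hearts. NZO/HlLtJ libraries all exceeded CAST/EiJ libraries, and Ccr9 was higher in NZO/HlLtJ than in CAST/EiJ (3.45, SE 0.49, adjusted p = 5.84e-06) and than in C57BL/6J (1.29, SE 0.40, adjusted p = 0.0162), and lower in CAST/EiJ than in C57BL/6J (-2.16, SE 0.54, adjusted p = 0.00206). Without NZO/HlLtJ male 44% fat replicate 2 the difference of Ccr9 from C57BL/6J was 1.02 (adjusted p = 0.0645), and without CAST/EiJ female or male 44% fat replicate 1 the differences against CAST/EiJ moved to -3.05 or -2.94 for CAST/EiJ minus C57BL/6J and 4.33 or 4.22 for NZO/HlLtJ minus CAST/EiJ. In either fit without a CAST/EiJ library, the library left alone in its group had no Ccr9 count. AC165425.1, on the opposite strand, shares 18.8% of the exonic bases of Ccr9, and whether counting used strand to keep their reads apart is not given.

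Cxcr6, the Cxcl16 receptor, was 0.186, 0.367 and 0.587 CPM in NZO/HlLtJ hearts, 0.0488, 0.187 and 0.292 CPM in CAST/EiJ hearts and 0.207, 0.358 and 0.638 CPM in C57BL/6J hearts. It was lower in CAST/EiJ than in C57BL/6J (-1.23, SE 0.37, adjusted p = 0.00798) and higher in NZO/HlLtJ than in CAST/EiJ (1.09, SE 0.37, adjusted p = 0.0170), with overlapping ranges. Most T and NK cell markers were called in the same directions. Their summed levels, which include Thy1, overlapped, and the part of these markers in the Cxcr6 result was not tested. The Cxcr6 difference between NZO/HlLtJ and CAST/EiJ, blocked on the identifier range, was 1.02, adjusted p = 0.0537. Cx3cr1, the fractalkine receptor of resident macrophages, was 0.979, 2.85 and 4.69 CPM in NZO/HlLtJ hearts, 0.830, 3.58 and 9.01 CPM in CAST/EiJ hearts and 2.24, 4.27 and 5.17 CPM in C57BL/6J hearts and was not called, at -0.08 (SE 0.43, adjusted p = 0.895) in CAST/EiJ and -0.53 (SE 0.44, adjusted p = 0.398) in NZO/HlLtJ against C57BL/6J. The neutrophil receptor Cxcr2 averaged 0.289 ± 0.157 CPM in NZO/HlLtJ hearts, 0.168 ± 0.106 CPM in CAST/EiJ hearts and 0.168 ± 0.113 CPM in C57BL/6J hearts, the B cell receptor Cxcr5 averaged 0.260 ± 0.123 CPM in NZO/HlLtJ hearts, 0.16 ± 0.0927 CPM in CAST/EiJ hearts and 0.319 ± 0.282 CPM in C57BL/6J hearts and the skin-homing receptor Ccr10 averaged 0.486 ± 0.144 CPM in NZO/HlLtJ hearts, 0.50 ± 0.261 CPM in CAST/EiJ hearts and 0.796 ± 0.249 CPM in C57BL/6J hearts (SD, n = 8 each), all without a call. With the identifier range as a block, Cxcr5 was called higher in NZO/HlLtJ than in CAST/EiJ (1.53, adjusted p = 0.0122) and Ccr10 lower in CAST/EiJ than in C57BL/6J (-0.71, adjusted p = 0.0469). Cxcr5 shares 110 exonic bases with Bcl9l (mean 37.1 CPM) on the opposite strand, and the use of strand in counting is not given. The eosinophil receptor Ccr3 and Ccr6, the receptor of Ccl20, were not tested and did not exceed 0.354 CPM in any library.

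Of the 5 atypical receptors, 1 was higher and 2 lower in CAST/EiJ against C57BL/6J hearts, 3 higher and 1 lower in NZO/HlLtJ against C57BL/6J hearts, and 3 higher and none lower in NZO/HlLtJ against CAST/EiJ hearts. The shares of all genes called were 58.8%, 35.5% and 60.3% in that order. Ccrl2, which binds chemerin and presents it to other cells, and Ackr4, which scavenges Ccl19, Ccl21 and Ccl25, lie on chromosome 9 (111054486 to 111057519 and 104084157 to 104126933). Their start regions, from the same table, are shown because Ccrl2 was highest in C57BL/6J and Ackr4 in NZO/HlLtJ hearts. For Ccrl2 the most upstream of 3 listed starts is given.
Ccrl2 (chr9:111057469-111057768, minus strand): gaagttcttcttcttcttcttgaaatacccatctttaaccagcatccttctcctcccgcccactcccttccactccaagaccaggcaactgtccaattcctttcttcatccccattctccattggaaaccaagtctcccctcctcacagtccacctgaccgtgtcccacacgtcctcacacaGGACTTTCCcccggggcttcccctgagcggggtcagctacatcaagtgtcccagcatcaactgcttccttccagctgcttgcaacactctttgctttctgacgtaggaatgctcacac
Ackr4 (chr9:104126594-104126893, minus strand): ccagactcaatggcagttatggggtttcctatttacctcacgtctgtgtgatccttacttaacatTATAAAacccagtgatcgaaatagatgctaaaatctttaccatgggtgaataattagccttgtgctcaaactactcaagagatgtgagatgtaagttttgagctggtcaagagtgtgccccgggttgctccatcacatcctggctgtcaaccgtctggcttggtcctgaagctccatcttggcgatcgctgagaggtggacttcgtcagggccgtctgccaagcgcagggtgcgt
The Ccrl2 window held GGACTTTCC, a match to GGANTTTCC, and the Ackr4 window held TATAAA, at -185 to -180 from the start. Ccrl2 was 5.39, 6.85 and 7.60 CPM in NZO/HlLtJ hearts, 2.47, 3.68 and 6.31 CPM in CAST/EiJ hearts and 7.90, 9.17 and 10.2 CPM in C57BL/6J hearts, and the C57BL/6J range lay above the other ranges, which overlapped. It was lower in CAST/EiJ than in C57BL/6J (-1.24, SE 0.11, adjusted p = 9.15e-09), lower in NZO/HlLtJ hearts than in C57BL/6J (-0.43, SE 0.10, adjusted p = 0.00307) and higher in NZO/HlLtJ than in CAST/EiJ (0.81, SE 0.11, adjusted p = 2.72e-06).

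Ackr4 was 3.51, 4.12 and 6.23 CPM in NZO/HlLtJ hearts, 1.25, 1.36 and 2.85 CPM in CAST/EiJ hearts and 2.00, 2.61 and 3.76 CPM in C57BL/6J hearts. Every NZO/HlLtJ library exceeded every CAST/EiJ library, and the C57BL/6J range overlapped both. Ackr4 was higher in NZO/HlLtJ than in CAST/EiJ (1.43, SE 0.11, adjusted p = 2.44e-09) and than in C57BL/6J (0.69, SE 0.11, adjusted p = 6.02e-05), and lower in CAST/EiJ than in C57BL/6J (-0.74, SE 0.12, adjusted p = 1.91e-05). It shares 479 exonic bases, 8.9% of its exons, with the far more abundant Acad11 on the opposite strand, and reads of both there can be told apart only if counting used strand, which is not given. The log2 differences of Acad11 were 1.03, 0.08 and -0.95 in the same 3 comparisons. Ackr2, which degrades inflammatory CC chemokines on lymphatic endothelium, was 1.89, 2.69 and 3.03 CPM in NZO/HlLtJ hearts, 1.14, 1.78 and 2.26 CPM in CAST/EiJ hearts and 1.31, 1.91 and 2.28 CPM in C57BL/6J hearts. It was higher in NZO/HlLtJ than in C57BL/6J (0.39, SE 0.15, adjusted p = 0.0407, lost in 10 of 24 fits without 1 library, adjusted p up to 0.127) and than in CAST/EiJ (0.59, SE 0.15, adjusted p = 0.00188), with overlap. Ackr1, the Duffy receptor of venules and red cells, averaged 0.251 ± 0.0992 CPM in NZO/HlLtJ hearts, 0.226 ± 0.0943 CPM in CAST/EiJ hearts and 0.147 ± 0.0844 CPM in C57BL/6J hearts (SD, n = 8 each) without a call, and 25.7% of its exonic bases also belong to Cadm3.

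Neighbouring genes did not always share a direction. Of the 48 genes, 13 lie on chromosome 11, 11 on chromosome 9 and 8 on chromosome 5. On chromosome 9, Ccr9, Cxcr6, Ccr1 and Ccr2 follow each other, with the untested Ccr3 among them, from 123678439 to 124113557. Between NZO/HlLtJ and C57BL/6J hearts the log2 differences along this stretch were 1.29 for Ccr9, -0.14 for Cxcr6, 1.14 for Ccr1 and -0.96 for Ccr2, where Cxcr6 was not called. On chromosome 5 the neighbours Cxcl9 and Cxcl10 had differences of -1.29 and 0.02 in that comparison, the second without a call. Between CAST/EiJ and C57BL/6J hearts, Ccr9, Cxcr6, Ccr1 and Ccr2 of chromosome 9, both chromosome 5 neighbours, and Ccl7, Ccl12, Ccl8, Ccl5 and Ccl6 of chromosome 11 were called lower. Among those chromosome 11 genes lie Ccl2, Ccl11 and Ccl9, which were not called in that comparison (-0.18, 0.07 and -0.30).

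**Figure D3:**
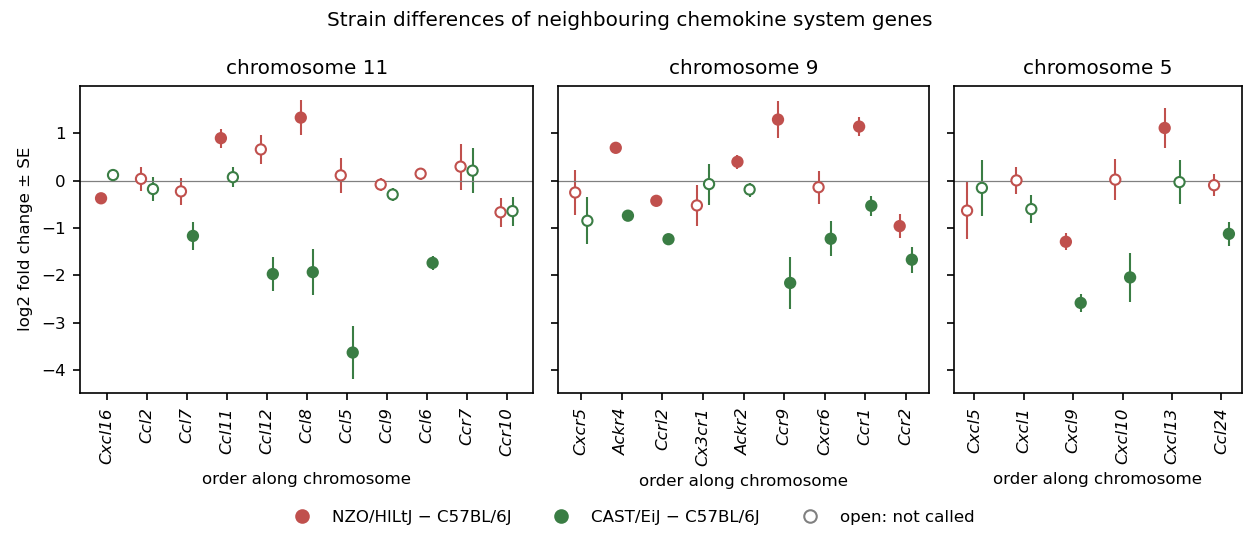
Log2 difference from C57BL/6J with its SE (vertical axis) for genes in their order along chromosomes 11, 9 and 5 (horizontal axis, not to scale), with NZO/HlLtJ in red, CAST/EiJ in green and open symbols for genes not called. Neighbours differ in sign in NZO/HlLtJ, as Ccr1 at 1.14 and Ccr2 at -0.96 do.

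Other genes of the chemokine pathway were called in both directions in CAST/EiJ against C57BL/6J hearts, where 58.8% of all genes were called. The shares of all genes were 35.5% in NZO/HlLtJ against C57BL/6J and 60.3% in NZO/HlLtJ against CAST/EiJ, and no list was tested against them. Of 8 chemokine genes with other symbols, 3 were higher and 4 lower in CAST/EiJ against C57BL/6J, 1 higher and 3 lower in NZO/HlLtJ against C57BL/6J, and 3 higher and 2 lower in NZO/HlLtJ against CAST/EiJ. Cd74, the invariant chain and the receptor of Mif, fell by 2.03 in CAST/EiJ and by 1.53 in NZO/HlLtJ hearts on the log2 scale, and Mif, a cytokine that also binds Cxcr2 and Cxcr4, was higher in CAST/EiJ (0.52). Of 18 genes of receptor coupling and desensitization, 5 were higher and 4 lower in CAST/EiJ against C57BL/6J, 2 and 2 in NZO/HlLtJ against C57BL/6J, and 5 and 3 in NZO/HlLtJ against CAST/EiJ. They included the receptor kinase Grk5, lower in NZO/HlLtJ hearts than in C57BL/6J (-0.72), and the G protein regulator Rgs16, higher in CAST/EiJ than in C57BL/6J (1.75). Of 18 migration genes, 5 were higher and 4 lower in CAST/EiJ against C57BL/6J, none and 1 in NZO/HlLtJ against C57BL/6J, and 3 and 4 in NZO/HlLtJ against CAST/EiJ, led by the leukocyte kinase Pik3cd (0.74 in CAST/EiJ against C57BL/6J). Of 14 NF-kappaB inducers and feedback genes tested, 3 were higher and 1 lower in CAST/EiJ against C57BL/6J, none was called in NZO/HlLtJ against C57BL/6J, and 2 were lower in NZO/HlLtJ than in CAST/EiJ.

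Markers of leukocytes and of other cells of the heart also included genes called between strains. Of all genes tested, 58.8% were called in CAST/EiJ against C57BL/6J hearts and 35.5% in NZO/HlLtJ against C57BL/6J hearts. In NZO/HlLtJ against CAST/EiJ hearts 60.3% were called, and no list was tested against these shares. Of 14 macrophage markers, 1 was higher and 8 lower in CAST/EiJ against C57BL/6J, none higher and 5 lower in NZO/HlLtJ against C57BL/6J, and 5 higher and 1 lower in NZO/HlLtJ against CAST/EiJ. Folr2 (-3.11) and Adgre1 (-1.13), both markers of resident macrophages, had the smallest adjusted p in CAST/EiJ against C57BL/6J. The summed macrophage markers nevertheless overlapped, at 208 to 288 CPM in NZO/HlLtJ, 228 to 269 CPM in CAST/EiJ and 236 to 296 CPM in C57BL/6J hearts. Of 8 monocyte markers, 4 were higher and 1 lower in CAST/EiJ against C57BL/6J, none and 1 in NZO/HlLtJ against C57BL/6J, and 1 and 2 in NZO/HlLtJ against CAST/EiJ, with Chil3 at 0 in every NZO/HlLtJ library. All 5 mast cell markers measured were tested, and 4 were lower in CAST/EiJ than in C57BL/6J, led by the protease Mcpt4 (-2.60). Summed, the mast cell markers ran over 9.74 to 13.9 CPM in NZO/HlLtJ, 4.46 to 7.91 CPM in CAST/EiJ and 8.16 to 13.7 CPM in C57BL/6J hearts, so that CAST/EiJ hearts overlapped neither other strain. Of 7 dendritic cell markers 4 were lower in CAST/EiJ and 4 lower and 1 higher in NZO/HlLtJ against C57BL/6J, and of 8 neutrophil markers 5 were higher in CAST/EiJ and 1 in NZO/HlLtJ. Of 5 red blood cell markers, 3 were higher in CAST/EiJ and 1 in NZO/HlLtJ than in C57BL/6J, and their sums overlapped, with medians of 8401 CPM in NZO/HlLtJ, 11624 CPM in CAST/EiJ and 5034 CPM in C57BL/6J hearts. Of 7 pericyte and smooth muscle markers, 1 was higher and 3 lower in CAST/EiJ and none higher and 3 lower in NZO/HlLtJ against C57BL/6J. Their sums were 1006 to 1136 CPM in NZO/HlLtJ and 1099 to 1266 CPM in CAST/EiJ hearts, below the 1276 to 1483 CPM of C57BL/6J hearts. Of 7 platelet and megakaryocyte markers, 1 was higher and 4 lower in CAST/EiJ and none higher and 1 lower in NZO/HlLtJ against C57BL/6J. At most 1 marker in each direction of the B and plasma cell, adipocyte and mesothelial lists was called in any of the 3 strain comparisons. The part of these markers in the differences of Ccl6, Ccl5, Ccr1 and Ccr2 was not tested.

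**Figure D4:**
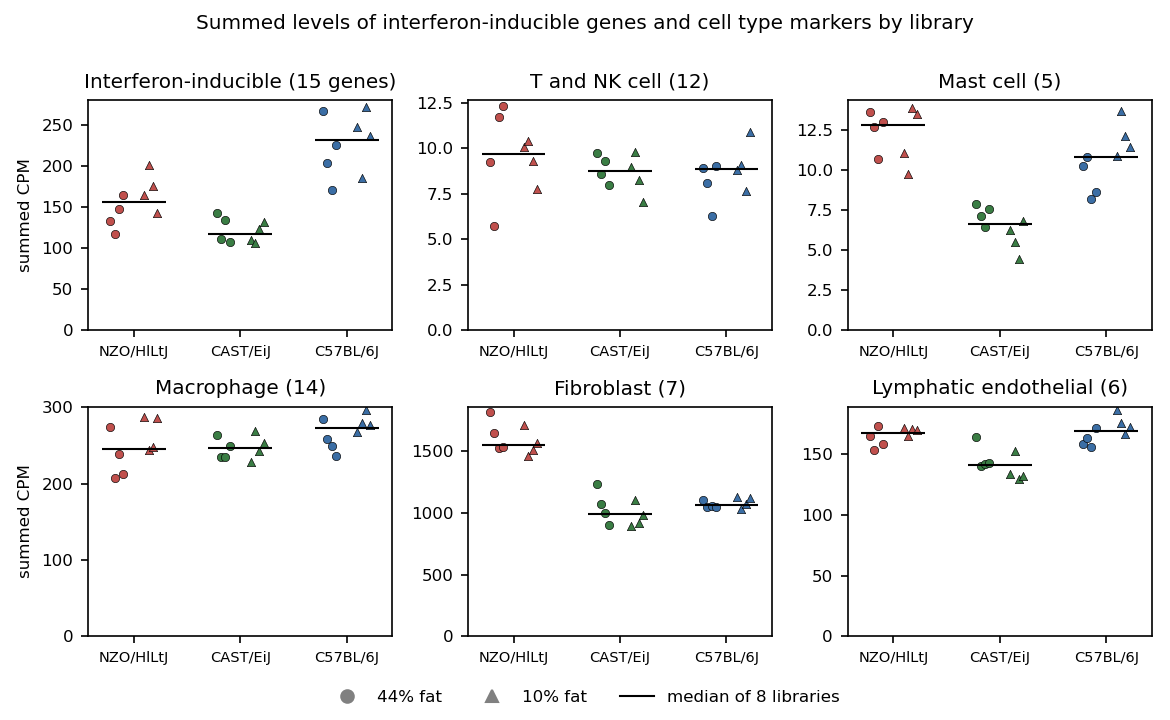
Summed level in CPM (vertical axes) of interferon-inducible genes and of the markers of T and NK cells, mast cells, macrophages, fibroblasts and lymphatic endothelium in every library, in columns of NZO/HlLtJ, CAST/EiJ and C57BL/6J hearts. Fibroblast markers reach 1461 to 1809 CPM in NZO/HlLtJ hearts, above every library of CAST/EiJ and C57BL/6J, and mast cell markers are below 8.16 CPM in every CAST/EiJ library.

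The 44% fat diet was set against the 10% fat diet to ask whether it changed these genes. No chemokine or receptor gene was called in NZO/HlLtJ, CAST/EiJ or C57BL/6J hearts alone, or over the 3 strains, with edgeR's quasi-likelihood test, where 0%, 0%, 0.0407% and 0.157% of all genes were called. At an unadjusted p under 0.05 there were 1, 2, 2 and 3 of the 39 genes. limma-voom and limma on the deposited variance-stabilized values called none of them either, and DESeq2 called 1 over the 3 strains, Cxcl13 (-1.18, adjusted p = 0.0350). A diet comparison within a strain rests on 4 libraries against 4, and a p that misses the threshold does not show that levels were equal. In CAST/EiJ the 2 libraries of the second identifier range are both on 10% fat and the 2 of the third both on 44% fat. Diet and range are thus partly aligned in that strain, and with the range as a block none of the 39 genes was called there either.

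The genes with the smallest p for diet over the 3 strains were Ccl24 and Cxcl13. Ccl24 measured 1.24 and 0.435 CPM in males and 0.933 and 0.725 CPM in females of NZO/HlLtJ on 44% fat, against 1.24 and 1.12 CPM in males and 1.24 and 0.790 CPM in females on 10% fat. In CAST/EiJ it measured 0.246 and 0.268 CPM in males and 0.585 and 0.308 CPM in females on 44% fat, against 0.780 and 0.650 CPM in males and 0.748 and 0.415 CPM in females on 10% fat. In C57BL/6J it measured 0.633 and 0.969 CPM in males and 0.862 and 0.546 CPM in females on 44% fat, against 1.99 and 1.16 CPM in males and 1.57 and 0.967 CPM in females on 10% fat. The diets overlapped within each strain, and the difference over strains was -0.74, SE 0.20, adjusted p = 0.218. Without NZO/HlLtJ male 44% fat replicate 1, Ccl24 was called, at -0.90 (adjusted p = 0.0299).

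Cxcl13 measured 2.37 and 0.680 CPM in males and 0.933 and 0.400 CPM in females of NZO/HlLtJ on 44% fat, against 0.900 and 2.24 CPM in males and 3.42 and 0.842 CPM in females on 10% fat. In CAST/EiJ it measured 0.246 and 0.586 CPM in males and 0.351 and 0.417 CPM in females on 44% fat, against 1.45 and 1.43 CPM in males and 0.484 and 0.775 CPM in females on 10% fat. In C57BL/6J it measured 0.664 and 1.02 CPM in males and 0.172 and 0.172 CPM in females on 44% fat, against 2.06 and 0.565 CPM in males and 0.393 and 1.19 CPM in females on 10% fat. The diets overlapped within each strain, and the difference over strains was -1.17, SE 0.34, adjusted p = 0.282.

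Whether diet acted differently by strain was tested as the difference of 2 diet effects. None of the 39 genes was called for NZO/HlLtJ against CAST/EiJ, CAST/EiJ against C57BL/6J or NZO/HlLtJ against C57BL/6J, where 0%, 0% and 0.00581% of all genes were called, and 3, 1 and 1 were at an unadjusted p under 0.05. DESeq2, limma-voom and limma on variance-stabilized values called none of them. Ccl8 had diet differences of opposite sign: -1.24 (SE 0.49) in NZO/HlLtJ, -2.18 (SE 0.79) in CAST/EiJ and 0.76 (SE 0.57) in C57BL/6J hearts. Its diet effect in CAST/EiJ minus that in C57BL/6J was -2.94, SE 0.98, adjusted p = 0.681, and in NZO/HlLtJ minus C57BL/6J it was -1.998, SE 0.75, adjusted p = 1.00. Ccl8 in NZO/HlLtJ measured 0.557 and 0.680 CPM in males and 0.311 and 0.525 CPM in females on 44% fat, against 0.528 and 0.825 CPM in males and 3.39 and 0.867 CPM in females on 10% fat. In CAST/EiJ it measured 0 and 0.0732 CPM in males and 0 and 0.0659 CPM in females on 44% fat, against 0.134 and 0.162 CPM in males and 0.154 and 0.249 CPM in females on 10% fat. In C57BL/6J it measured 0.411 and 0.867 CPM in males and 0.276 and 0.230 CPM in females on 44% fat, against 0.213 and 0.642 CPM in males and 0.131 and 0.132 CPM in females on 10% fat. The diets overlapped in NZO/HlLtJ and C57BL/6J, while in CAST/EiJ every 44% fat library was below every 10% fat library at counts of 9 or fewer per library. Without CAST/EiJ male 10% fat replicate 2, Cxcl14 was called lower on 44% fat in CAST/EiJ (-1.24, adjusted p = 0.0432) and its diet effect was called lower in CAST/EiJ than in C57BL/6J (-1.59, adjusted p = 0.0480). That fit leaves the 1 remaining CAST/EiJ male library on 10% fat, which held 4.21 CPM of Cxcl14, alone in its group.

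**Figure D5:**
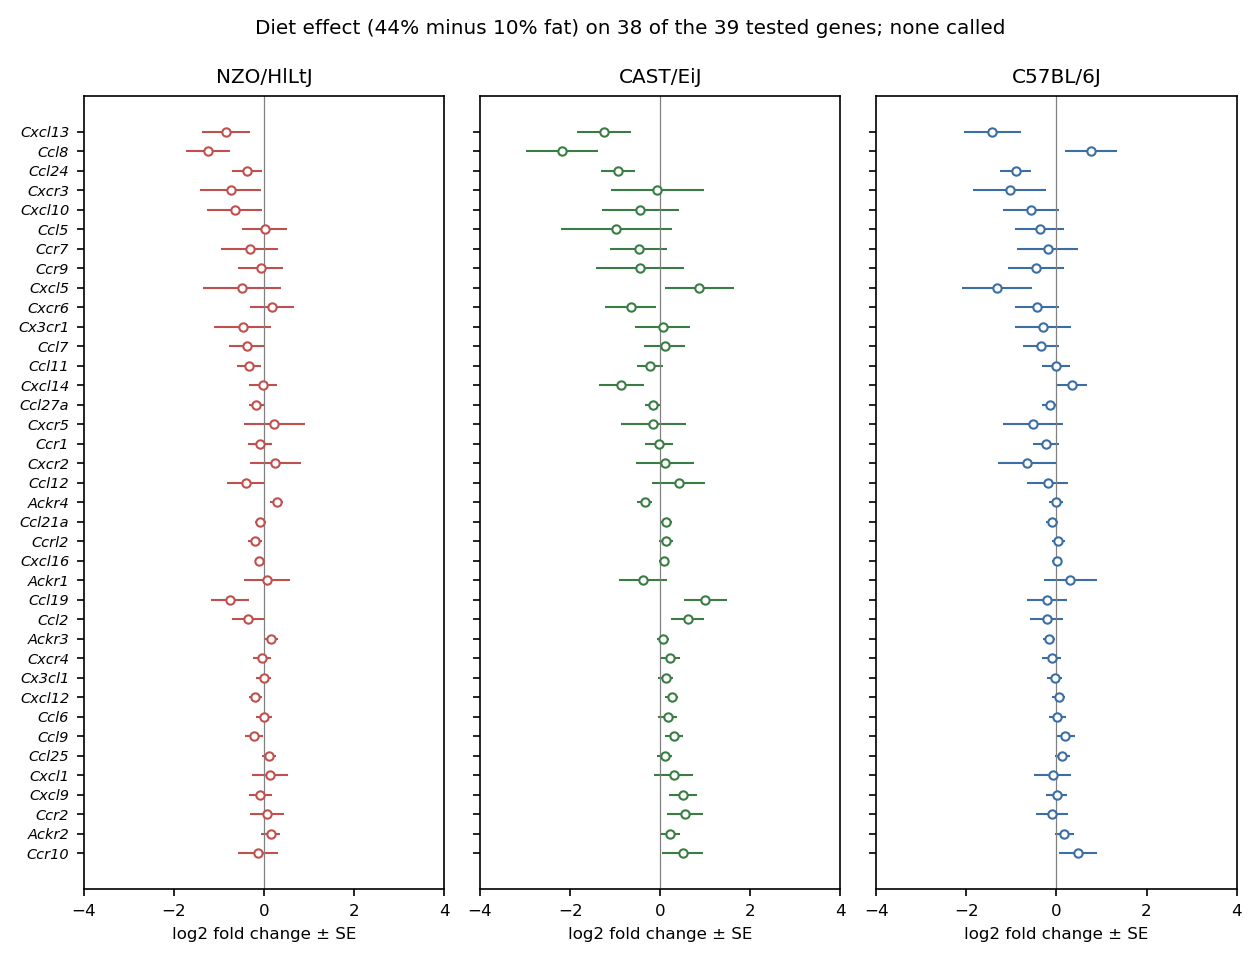
Log2 difference between 44% and 10% fat with its SE (horizontal axis) for 38 of the 39 tested genes (rows), in panels of NZO/HlLtJ, CAST/EiJ and C57BL/6J hearts. No gene is called in any panel, and the SEs are widest for genes of low level such as Ccl8, at -1.24, -2.18 and 0.76 in panel order.

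Males were set against females with 12 libraries each. None of the 39 genes was called with edgeR's quasi-likelihood test, where 0.372% of all genes were, and 8 were at an unadjusted p under 0.05. DESeq2 called 1, Ccl11 (0.64, adjusted p = 0.0444), and limma-voom and limma on variance-stabilized values called none. Ccl11 ran over 1.03, 1.45 and 2.48 CPM in males and 0.310, 1.00 and 2.12 CPM in females as lowest, median and highest, with overlap, and the difference was 0.64, SE 0.17, adjusted p = 0.133. Without C57BL/6J female 44% fat replicate 2 it was called, at 0.82 (adjusted p = 0.0260), and without CAST/EiJ male 10% fat replicate 2 Cxcl14 was called, at 0.72 (adjusted p = 0.00133). Ackr4 (0.30), Cxcl14 (0.59) and Cxcl13 (0.85) also had positive differences, and Cxcl10 (-0.85), Ccr1 (-0.37), Ccl6 (-0.26) and Ccrl2 (-0.20) negative ones, with adjusted p from 0.262 upward. The sex effect was compared between strains as well, and none of the 39 genes was called in NZO/HlLtJ against CAST/EiJ, CAST/EiJ against C57BL/6J or NZO/HlLtJ against C57BL/6J, with 0% of all genes called in each and 1, 4 and 4 of the 39 at an unadjusted p under 0.05. DESeq2 and both limma fits called none of them either.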

How the data were processed

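Polyadenylated heart RNA was sequenced in 24 libraries of 3 strains, both sexes and 2 diets, 2 libraries per group. The authors deposited estimated counts per gene, of which 19.3% are not whole numbers (tolerance 1e-06), variance-stabilized values close to a log2 scale, and gene positions. GRCm38 and DESeq2 are named without role or version in the submitters' processing notes. Not given in the sources used here were the aligner, the counter, the annotation release, the use of strand and whether reads were aligned to each strain's own genome, and each can change the counts of a gene whose sequence differs between strains.

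Counts were rounded and fitted in R 4.3.3 with edgeR 4.0.16 (quasi-likelihood test, TMM scaling with factors from 0.954 to 1.06, means of the 12 groups, robust dispersion). Genes were kept by edgeR's expression filter set to 10 counts per library and 15 in total, which kept 17203 of 20961. Strain, diet and sex differences are averages over the other factors, p-values were adjusted over all 17203 genes by Benjamini-Hochberg, and the steps were tested on simulated data. Alternatives used DESeq2 1.42.0, limma 3.58.1 (voom on counts, and trend on the deposited log2-like values), other size factors and filters, fewer libraries, and the range of sample identifiers as a block. The sample names fall into 3 ranges of identifiers, of which NZO/HlLtJ has none in the first, and the labels do not say what the ranges are. The labels number no replicates, so the numbers used here follow accession order and pair nothing.

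The genes were chosen by symbol, and all 48 enter the counts. A few items, 1 of the receptors among them, are not reported here by name. Of other gene lists, counts and at most 3 members of smallest adjusted p per comparison are named. Genes and lists were chosen with earlier results of these data known. Positions are those of the deposited annotation in megabases, on GRCm38. Exon lengths, shared 100-base windows and exon overlaps are from GENCODE M21, which holds all 48 genes, 37 with the same start and end. Promoter windows are from RefSeq.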

Additional observations from a re-analysis of the deposited data

Results flagged for a closer look

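In 8 of 135 groups of libraries, of 8 for the strains and of 4 for the diets within a strain, 1 library stood apart from the others of its group by Dixon's criterion, which chance alone exceeds in about 1 in 20 groups. Ccl8, the macrophage ligand, was at 3.39 CPM in NZO/HlLtJ female 10% fat replicate 1, with the next library of the strain at 0.867 CPM. The same Ccl8 value of 3.39 CPM stood apart among the 4 NZO/HlLtJ libraries on 10% fat. In C57BL/6J hearts on 10% fat, Ccl8 was at 0.642 CPM in male replicate 2, with the next at 0.213 CPM.

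Ccl9, a ligand of Ccr1, was at 11.7 CPM in the same NZO/HlLtJ female library on 10% fat (next 8.31 CPM) and at 10.7 CPM in C57BL/6J female 44% fat replicate 1 (next 8.44 CPM). Ccl12, a monocyte ligand, reached 1.86 CPM in NZO/HlLtJ male 10% fat replicate 1 (next 1.02 CPM). Cxcl14 was at 4.21 CPM in CAST/EiJ male 10% fat replicate 1, while the other CAST/EiJ libraries were at 0.989 CPM or below. In that library Cxcr3 was also highest, at 0.134 CPM (next 0.0737 CPM).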

How the results depend on the processing

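The numbers of called chemokine and receptor genes were recomputed under other size factors, filters and tools, with the identifier range as a block, with fewer libraries, and without each of the 24 libraries in turn, which gave 434 counts within 1.5 times those reported and 9 outside. With genes kept only at a mean of at least 1 CPM, CAST/EiJ against C57BL/6J had 13 called genes (22 reported) and NZO/HlLtJ against CAST/EiJ had 15 (25 reported), since 22 in place of 39 of the genes were then tested. DESeq2's Wald test called 1 gene for diet over the 3 strains and 1 between males and females, where edgeR called 0. Without 1 library, the count ran from 0 to 1 for diet in CAST/EiJ, from 0 to 1 for diet over the 3 strains, from 0 to 1 for the diet effect in CAST/EiJ minus C57BL/6J, and from 0 to 1 for males against females. The counts without 1 library ran from 19 to 23 for CAST/EiJ against C57BL/6J, from 12 to 17 for NZO/HlLtJ against C57BL/6J and from 21 to 27 for NZO/HlLtJ against CAST/EiJ. Of the values of single named genes under the alternatives, 4449 stayed on the same side of the threshold, 51 passed it newly, 154 no longer passed it and 0 changed the sign of a call. For genes called neither in the main fit nor in the alternative, the sign was not compared, and it changed for some, such as Cx3cr1.

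The calls that the identifier range as a block ended or added are given beside each gene, and why they changed was not tested. Within the first range, Ackr4 (-0.62, adjusted p = 0.10), Cxcr6 (-0.56, adjusted p = 0.411), Ccr9 (-1.93, adjusted p = 0.0563), Ccr1 (-0.32, adjusted p = 0.377), Ccl19 (-0.38, adjusted p = 0.478) and Ccl25 (0.22, adjusted p = 0.277) were not called between CAST/EiJ and C57BL/6J, with 4 libraries in each strain, while Ccl9 (-0.38, adjusted p = 0.0482) and Cxcl16 (0.26, adjusted p = 0.0418) were called there and not over all libraries. In NZO/HlLtJ against CAST/EiJ, Ccr2 was not called when only these strains were fitted (0.70, adjusted p = 0.0717). No paired analysis was possible because the labels give no replicate numbers. Ligands below 1 CPM, such as Ccl5, Cxcl10 and Ccl8, rest on few counts in CAST/EiJ hearts, and 4 libraries per diet and strain limit the diet comparisons.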

Other observations

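Cx3cr1, a receptor of resident macrophages, varied within strains with the range of sample identifiers, a pattern noticed after its values were seen. In CAST/EiJ hearts, Cx3cr1 was between 3.91 and 9.01 CPM in the 4 libraries of the first range, against 0.830 to 3.25 CPM in the other 4. In C57BL/6J hearts it was between 4.62 and 5.17 CPM in the first range, against 2.24 to 3.93 CPM in the other 4. Cx3cr1 was the 1 gene among the 39 that separated the ranges in the same direction in both strains, as did 27 of 17203 genes (0.157%). The summed macrophage markers overlapped between ranges in both strains. NZO/HlLtJ has no library in the first range, and with the range as a block its difference from C57BL/6J in Cx3cr1 was 0.11, adjusted p = 0.850, beside -0.53 without the block.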
